A study of Mus musculus with 8 samples.

Results

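The prolactin receptor gene Prlr and 8 other genes of its signalling route, the growth hormone receptor gene Ghr, the kinase gene Jak2, the transcription factor genes Stat5a and Stat5b, and the inhibitor genes Cish, Socs1, Socs2 and Socs3, were followed in the adult oviduct of mice treated with genistein (Gen) as newborns. Every probe whose gene name on the array was one of these 9 was used, which gave 19 of 41174 probes, and the 9 genes were among 27670 gene names. The question was whether the inhibitor genes, which Stat5 is known to switch on, moved with Prlr. The set was chosen by the Prlr signal, whose rise in Gen mice over controls was known beforehand, so the values of Prlr are given as a description with no test, and only the 16 probes of the other 8 genes were tested.

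RNA from female CD-1 mice was labelled with Cy3 and hybridised to 8 whole-genome oligonucleotide arrays (Agilent), taken here as 1 mouse to an array. The 4 control mice had received corn oil, the vehicle, and the 4 Gen mice had received Gen, an estrogenic isoflavone of soy, in corn oil at 50 mg/kg/day. Injections were subcutaneous, on postnatal days (PND) 1–5. At 6–8 weeks every mouse was given gonadotropins to superovulate and was mated, and oviducts of females with a vaginal plug were taken on gestation day (GD) 2, 48 hr after human chorionic gonadotropin (hCG), with the embryos removed. The paper states that both oviducts of an adult mouse formed 1 replicate for its PCR work. For the arrays it states only that the 4 replicates of a group were independent, and each is read here as 1 mouse. All mice thus shared a gonadotropin-stimulated, mated state. Each group filled a slide of its own, so an effect of the slide and one of Gen cannot be told apart in any value below.

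Probes well above background numbered 25366 to 28943 on the control arrays and 29537 to 31488 on the Gen arrays. The tissue matched its label: Ovgp1, the oviduct-specific glycoprotein, and Foxj1, a master regulator of motile cilia, were well above background on all 8 arrays, and none of the 12 oviduct epithelium markers differed between groups at an adjusted p under 0.05. Signals below are processed signals scaled between arrays, on a linear scale, and differences are Gen minus control means of log2 signal.

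Prolactin binding pairs receptor chains at the cell surface, and Jak2, bound to the receptor inside the cell, then phosphorylates Stat5a and Stat5b, which pair, enter the nucleus and bind DNA. Cish and the Socs genes are among the genes they switch on, and their proteins block the receptor or the kinase, so that the level of these RNAs is often read as a trace of signalling. Ghr uses the same kinase and Stat5 proteins. In the female reproductive tract and ovary Prlr is best known for keeping the corpus luteum active in early pregnancy.

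Prlr was read by 3 probes, which the array design places on the plus strand of chromosome 15 of the mouse mm7 build, from 5′ to 3′ at chr15:10387524-10387583 (A_52_P458279), chr15:10394904-10394963 (A_52_P602987) and chr15:10398442-10398501 (A_51_P264673). Their starts lay 7380 and 3538 bases apart, so each read a different stretch of the gene, and which receptor isoform each one reads was not analysed here. The first and second are printed because the Prlr result rests on separate stretches of sequence, and no base in them is set apart by capitals.
Prlr A_52_P458279: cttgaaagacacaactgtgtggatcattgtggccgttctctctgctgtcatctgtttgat
Prlr A_52_P602987: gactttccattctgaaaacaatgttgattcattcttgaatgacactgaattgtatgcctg

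Stat5 pairs bind the DNA motif TTCNNNGAA, where N is any base, and the motif reads the same on both strands. In RefSeq promoter windows on GRCm38.p6, from 250 bases before to 50 after each start site, 8.3% of 32851 windows held the motif at least once and 0.457% held 2 or more. Of the 9 genes, 8 had a window and 13 windows were found in all, which held 2 matches for Cish, 1 for Socs3, 1 in 1 of the 3 windows of Prlr, and none for Ghr, Jak2, Stat5a, Stat5b or Socs1. The stretch of Cish at chr9:107296654-107296683, on the plus strand, is printed because Cish is the gene most closely tied to Stat5 in this set, and capitals mark its 2 matches, which are a description and not shown binding sites.
Cish: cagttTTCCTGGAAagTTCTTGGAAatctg

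Prlr was higher in the Gen mice at all 3 probes, by 2.06-fold to 3.31-fold on the scale of mean log2 signals. All 3 probes were well above background on every array. At A_52_P602987 the signals of control mice 1 to 4 were 1046.4, 570.43, 1061.5 and 648, and those of Gen mice 1 to 4 were 3554.9, 3581.5, 1565.4 and 2466.8. Every Gen mouse lay above every control mouse, with Gen 3 nearest to the controls. The mean log2 signal was 9.64 ± 0.464 in controls and 11.4 ± 0.564 after Gen (SD, n = 4 each), a difference of 1.73 (SE 0.33), or 3.31-fold with a 95% interval of 1.96 to 5.58.

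At A_51_P264673 the controls gave 300.07, 201.48, 263.91 and 219.28, and the Gen mice gave 761.36, 1008.7, 422.71 and 590.93. The groups were again apart, and the difference was 1.44 (SE 0.27), or 2.72-fold. At A_52_P458279 the controls gave 216.54, 228.67, 317.94 and 246.45, and the Gen mice gave 743.67, 753.43, 319.34 and 389.77. Here Gen 3 lay just above control 3, and the difference was 1.04 (SE 0.31), or 2.06-fold. Among all probes well above background on all 8 arrays, 5.1% had every Gen value above every control value; since Prlr was chosen for this contrast, nothing is read from its 3 of 3.

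The spread among the Gen mice was shared by the 3 probes: Gen 1 and Gen 2 were the highest, Gen 4 came next and Gen 3 was the lowest at each. Relative to the control mean, Gen 1 was higher by 2.15, 1.58 and 1.65 on the log2 scale at A_52_P602987, A_52_P458279 and A_51_P264673, whereas Gen 3 was higher by 0.97, 0.36 and 0.80. The SD of log2 signal among Gen mice was above that among controls at all 3 probes, at 0.564, 0.638 and 0.534 against 0.464, 0.245 and 0.259.

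**Figure D1:**
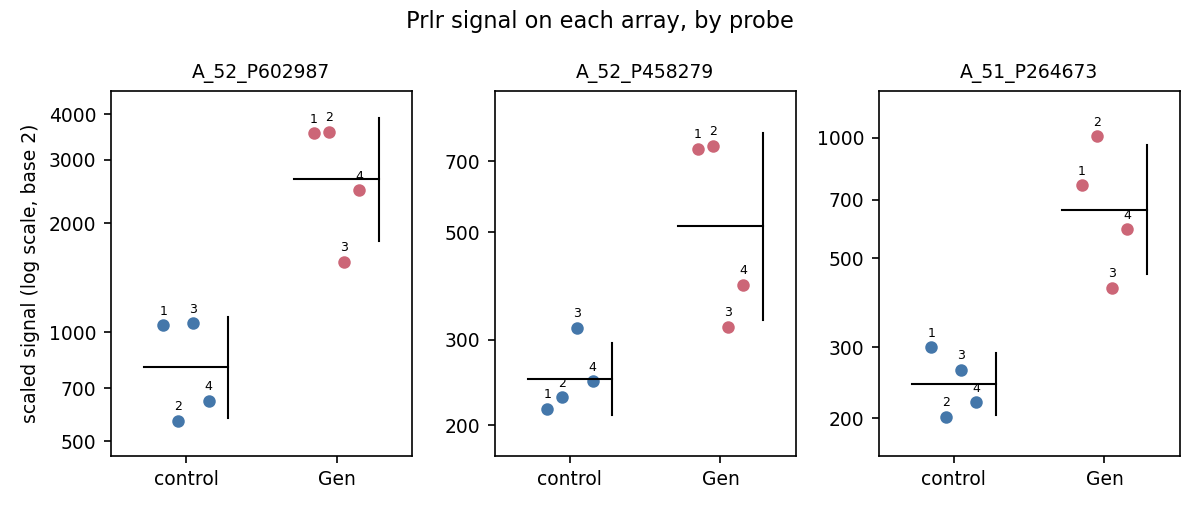
Scaled processed signal (log axis, base 2) of the 3 Prlr probes, 1 point per mouse with its replicate number; horizontal lines are means of log2 signal and vertical lines ± 1 SD (n = 4). Every Gen mouse lies above every control mouse at each probe, and Gen 3 is the lowest Gen mouse at all 3, just above control 3 (319.34 against 317.94) at A_52_P458279.

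None of the 16 probes of the other 8 genes passed an adjusted p of 0.05 (limma, Benjamini-Hochberg over 41173 probes), where 4.37% of all probes well above background on all 8 arrays did and 16.2% of all probes, dim ones included. Their differences ran from -0.33 to 0.97 with a median of -0.04, against a median of -0.01 and a 5th to 95th percentile range of -0.52 to 0.54 over the probes measured on every array. The difference was above 0 for 7 probes and below 0 for 9. None reached an unadjusted p of 0.01, which 5.13% of the probes measured on every array did, and 1 reached 0.05, where 15.2% of those probes did. The methods' t-test on the same values also gave 0 at an unadjusted p of 0.01 and 1 at 0.05, against 5.99% and 17.8% of the probes measured on every array, and after Benjamini-Hochberg adjustment it called none of the 16 and 0% of those probes. Of the 16 probes, 15 were well above background on all 8 arrays and none was saturated on any array.

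**Figure D2:**
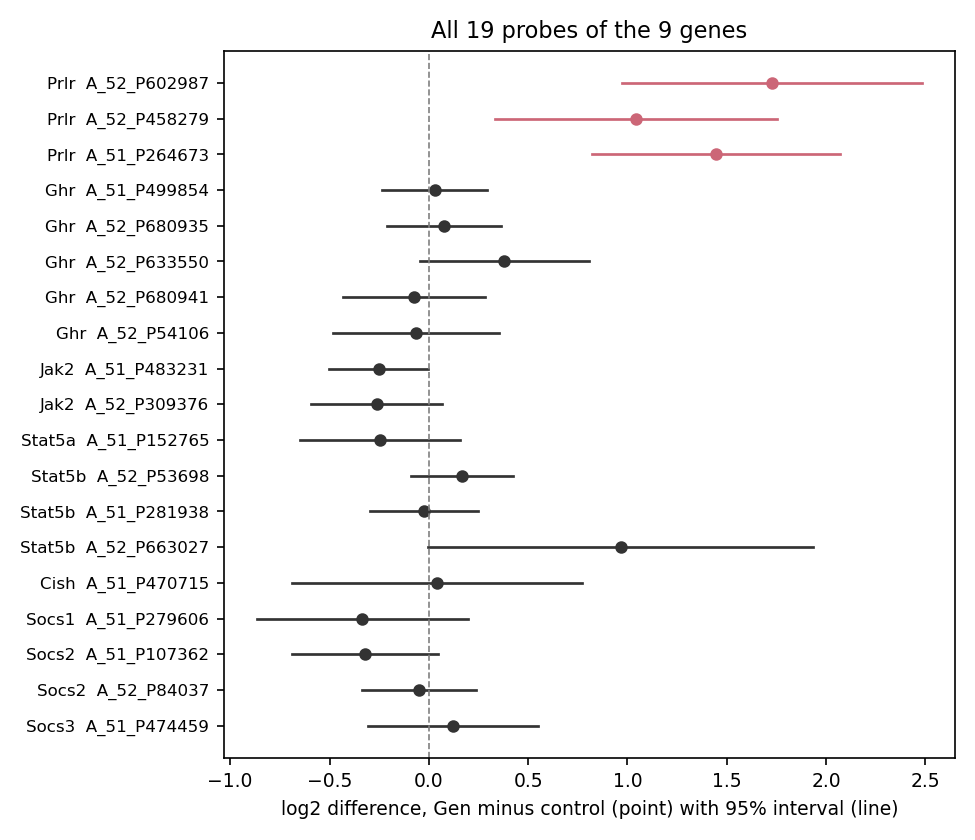
Difference in log2 signal, Gen minus control, of all 19 probes (points) with 95% intervals from the limma fit (lines); the 3 Prlr probes, shown in red, are a description. The 3 Prlr points lie at 1.04 to 1.73 and the other 16 points at -0.33 to 0.97, and among these the interval of 1 Jak2 probe stops just short of 0.

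Cish encodes a small SH2 protein that competes with Stat5 for the receptor and is the classic early target of Stat5. Its signals were 4180.6, 6190.4, 6697.6 and 8897.2 in control mice 1 to 4 and 9946.9, 7475.7, 5619.6 and 4125.6 in Gen mice 1 to 4. The groups overlapped over almost their whole range, with both the highest and the lowest value in the Gen group. The mean log2 signal was 12.6 ± 0.450 in controls and 12.7 ± 0.545 after Gen (SD, n = 4 each), a difference of 0.04 (SE 0.32, adjusted p = 0.951 by limma). The 95% interval of the difference ran from 0.619-fold to 1.71-fold, so these arrays do not settle whether Cish differed by less than that.

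Within the Gen group Cish was highest in Gen 1 and next in Gen 2, the mice with the highest Prlr, but it was lowest in Gen 4, which had more Prlr signal than Gen 3 at each of the 3 probes. Within the controls Cish was highest in control 4 and lowest in control 1, whereas Prlr was higher in control 1 than in control 4 at A_52_P602987 and A_51_P264673 and lower at A_52_P458279. No correlation is given, because the Prlr values form 2 separate groups of 4.

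Socs1, whose protein binds and blocks Jak kinases, gave 3123.8, 4550.7, 5541.3 and 5145.3 in controls and 3459.1, 4609.7, 3765.4 and 2672.8 in Gen mice. The groups overlapped, and the difference was -0.33 (SE 0.23, adjusted p = 0.395 by limma), the lowest of the 16. Its interval ran from 0.549-fold to 1.15-fold, which leaves out a rise of the size seen for Prlr.

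Socs2, a growth hormone-responsive gene whose protein limits Ghr signalling, had 2 probes. At A_51_P107362 the controls gave 8979.8, 9401.9, 11571 and 8936.1, and the Gen mice gave 8870.5, 8503.7, 7849.1 and 6057.9. Every Gen mouse lay below every control mouse, although Gen 1 and control 4 were close, and the groups overlapped with quantile normalization and without scaling between arrays. The difference of -0.32 (SE 0.16) had an adjusted p of 0.234 by limma, and the 2-sided exact permutation test gave p = 0.0286, the smallest it can give with 4 mice against 4. This was 1 of the 16 probes, whereas 12.4% of all probes well above background on all 8 arrays had groups that did not overlap, 7.34% with Gen below. At the other probe, A_52_P84037, the groups overlapped and the difference was -0.05 (SE 0.12, adjusted p = 0.834).

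Socs3, induced mostly by Stat3 and also by Stat5, gave 9115, 7787.7, 12657 and 11308 in controls and 11733, 12683, 9009.2 and 10607 in Gen mice. The groups overlapped, with a difference of 0.12 (SE 0.19, adjusted p = 0.721 by limma) and an interval of 0.808-fold to 1.47-fold. Among the Gen mice Socs3 was lowest in Gen 3, as Prlr was, and highest in Gen 2, but control 3, with far less Prlr signal than Gen 2, had nearly the same Socs3 signal as Gen 2.

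**Figure D3:**
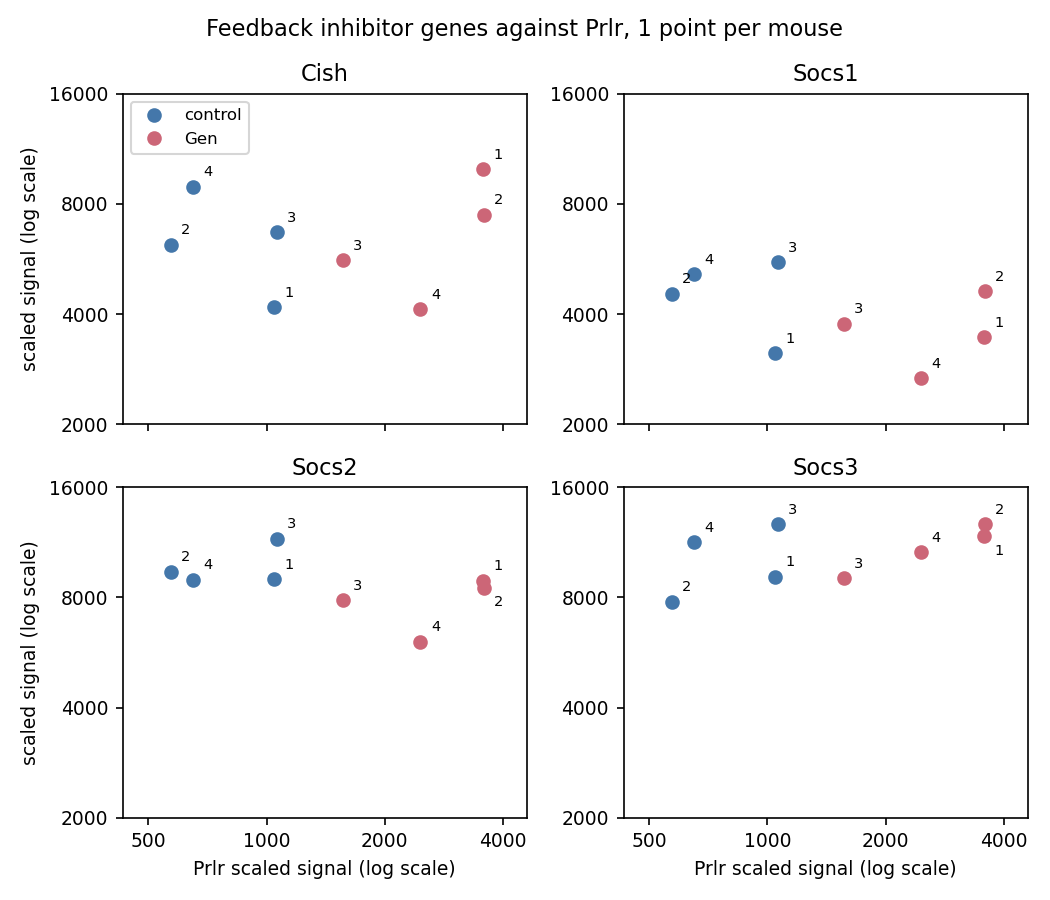
Scaled signal of Cish, Socs1, Socs2 (A_51_P107362) and Socs3 against that of Prlr (A_52_P602987) in the same mouse, both on log axes, with replicate numbers beside the points. Along the Prlr axis the Gen mice (1565.4 to 3581.5) lie apart from the controls (570.43 to 1061.5), while on the vertical axis the groups overlap for Cish, Socs1 and Socs3, and for Socs2 every Gen mouse is below every control.

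The receptor, kinase and Stat5 genes other than Prlr did not pass the test either. Ghr, the receptor closest to Prlr in its way of signalling, had 5 probes with differences from -0.07 to 0.38 (adjusted p from 0.224 to 0.899 by limma). At A_51_P499854 the controls gave 7457.1, 8060.6, 7732.4 and 7278.6 and the Gen mice 7232.6, 7077.3, 8013.2 and 8930.8, a difference of 0.03 (SE 0.12). The controls thus lay inside the range of the Gen mice. The highest value, 0.38 (SE 0.18), belonged to A_52_P633550, where control 4 at 1725.9 overlapped Gen mice at 1335.1 to 1918.2. The other 4 Ghr probes had differences from -0.07 to 0.07.

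Jak2, the kinase that Prlr and Ghr share, had the lowest p of the 16 probes. At A_51_P483231 the controls gave 6653.6, 7077, 7304.5 and 6267.5 and the Gen mice 5583.5, 5398.4, 6307.9 and 5646.2. Only Gen 3 and control 4 kept the groups from being apart, and the difference was -0.25 (SE 0.11), with an unadjusted p of 0.0481 and an adjusted p of 0.173 by limma. The other Jak2 probe, A_52_P309376, had a difference of -0.26 (SE 0.14, adjusted p = 0.280). These 2 values, and those of Stat5a, were near 0 when arrays were not scaled to each other, at -0.01, -0.02 and -0.01.

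Stat5a, the form of Stat5 most needed for prolactin action in the mammary gland, gave 6871.3, 4486, 4770.6 and 4891.8 in controls and 4020.5, 5273.9, 4501.3 and 3796.9 in Gen mice, a difference of -0.25 (SE 0.17, adjusted p = 0.407 by limma). The groups overlapped, and control 1 was the highest mouse. Stat5b, the form most needed for growth hormone action in liver, had 3 probes. A_52_P53698 gave 14685, 11723, 13400 and 12783 in controls and 14156, 15569, 15055 and 14198 in Gen mice, a difference of 0.17 (SE 0.11, adjusted p = 0.374).

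A_51_P281938 of Stat5b gave a difference of -0.02 (SE 0.12, adjusted p = 0.917 by limma). The third Stat5b probe, A_52_P663027, gave 49.836, 44.364, 57.582 and 146.93 in controls and 185.5, 117.18, 157.45 and 79.543 in Gen mice. It was well above background on 3 of 4 control arrays and all 4 Gen arrays, and control 4 lay amid the Gen mice. Its difference was 0.97 (SE 0.42, adjusted p = 0.179). Without control 4 it was 1.35 with an adjusted p of 0.0184, the only value of these 16 probes that passed when any 1 array was left out. The probe takes its gene name from a cDNA clone rather than from the reference transcript that names the other Stat5b probes. Clones also name Prlr A_52_P602987 and A_51_P264673, Ghr A_52_P633550 and A_52_P54106, and Socs2 A_52_P84037.

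The ligands were not measurable. Neither the probe of Prl, prolactin itself, nor that of Gh, growth hormone, was well above background on any control array; Prl was so on 1 Gen array and Gh on none. Both hormones come chiefly from the pituitary, and their blood levels are not part of these data.

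Of 85 other genes in 5 lists of the same route, 74 were well above background on all 4 arrays of a group, and 5 of these passed an adjusted p of 0.05 with 1 probe per gene, which is 6.76%, where 5.35% of all genes measured that way did, 3.16% upward and 2.18% downward, against 3 and 2 of the 74. The median difference of the 74 was 0.07, against 0.03 over all those genes. The luteinizing hormone receptor gene Lhcgr, 1 of the 5, was among the 74 through the Gen arrays alone. So were the Stat5 targets Wap and A2m and the receptor gene Il2ra, well above background on 1, 3 and 2 control arrays. Their differences were 1.20, 0.85 and 0.26, and none of them passed. The count and the median of the 74, and those of the lists that hold these genes, are thus tilted toward rises. Calls here depended on the probes tested together: with dim probes left out before the adjustment, 1 of the 5, Igf1, still passed, as did 1.1% of all probes then tested, and leaving out 1 array gave 0 to 6 calls, with 0 without control 1, Gen 1, Gen 2 or Gen 3 and 2 without control 2 or control 4.

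Of the 12 other Jak, Stat and Socs genes, 1 rose, 1 fell and 10 did not pass, with a median difference of 0.12. Stat4, best known for interleukin 12 signalling in T and natural killer cells, rose by 0.89 (SE 0.19, adjusted p = 0.0236 by limma), from 57.284 to 75.148 in controls to 99.981 to 170.28 in Gen mice. Socs7, a little studied member of the inhibitor family, fell by 0.44 (SE 0.11, adjusted p = 0.0281 by limma), from 70.559 to 84.131 in controls to 53.112 to 60.625 in Gen mice. The groups did not overlap at either gene. None of the 22 measured phosphatases, PIAS proteins and adaptors, which damp or relay the signal, passed the test, and their median was 0.01.

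Of the 18 measured genes known as targets of prolactin, growth hormone or Stat5 in other tissues, 1 rose, 1 fell and 16 did not pass, with a median of 0.00. Differences were above 0 for 9 and below 0 for 9. Hsd17b7 had the largest difference of those that did not pass, 2.15 (SE 0.69, adjusted p = 0.0755 by limma), with groups that overlapped. Its 2 probes had differences of 2.15 and 2.36. Igf1, the insulin-like growth factor that growth hormone raises through Stat5b in liver and that estrogen also regulates, gave 12090, 11021, 13051 and 12156 in controls and 7600.6, 7527.8, 9097.9 and 7449.9 in Gen mice. Every Gen mouse lay below every control, and Igf1 fell by 0.61 (SE 0.12, adjusted p = 0.0236 by limma), or 1.53-fold. All 3 Igf1 probes had differences below 0, from -0.64 to -0.30.

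Lhcgr, the luteinizing hormone receptor of ovarian cells, was not well above background on any control array and was so on all 4 Gen arrays. Its signals were 10.044, 8.269, 40.698 and 6.8678 in controls and 303.97, 186.03, 34.129 and 76.351 in Gen mice, so that control 3 lay above Gen 3. The adjusted p was 0.0292 by limma and 0.373 with a floor of 34.7 under small signals, and no fold is given against signals not well above background. The milk protein genes Csn2, Csn1s1 and Csn1s2a, Stat5 targets in the mammary gland, were not well above background on any of the 8 arrays.

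None of the 16 measured receptors that use Stat5 in blood and immune cells passed the test, with a median difference of 0.43. Differences were above 0 for 13 and below 0 for 3, and the median over all genes measured that way was 0.03. The lowest adjusted p was 0.0512 by limma, at Il2rg, with a difference of 0.75 and groups that did not overlap. Of the 6 gp130-type receptors, which signal mostly through Stat3, 1 rose: Lifr, the leukemia inhibitory factor receptor, by 0.49 (SE 0.14, adjusted p = 0.0435 by limma), from 860.69 to 1081.4 in controls to 1196.2 to 1528.2 in Gen mice. The 5 Lifr probes had differences from -0.33 to 0.49, and the probe that passed was the highest of them. With 1 array left out it passed in no fit, with adjusted p from 0.0589 to 0.106 by limma. The median of the 6 receptors was 0.18.

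**Figure D4:**
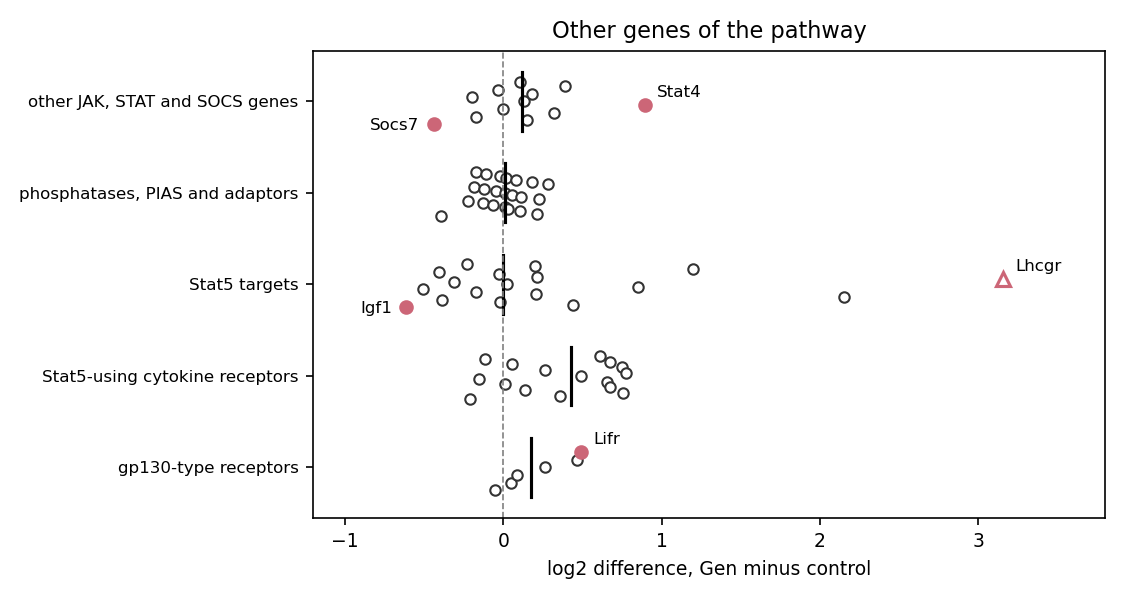
Difference in log2 signal, Gen minus control, of the 74 measured genes of the 5 lists, 1 point per gene (its brightest probe); named red points passed an adjusted p of 0.05, vertical bars are list medians, and the open triangle is Lhcgr, not well above background in controls, whose position is no exact size. The other 4 named genes lie at -0.61 to 0.89, and the median of each list is between 0.00 and 0.43.

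The genes whose pattern over the 8 arrays was most like that of Prlr were found by the root mean square distance of log2 signals, each centred on its mean over the arrays, from A_52_P602987 among 14251 genes. In order of distance they were Me1 (0.205), Mfsd4a (0.254), Fdxr (0.310), Dpysl4 (0.320) and Smarca1 (0.326), where the median gene lay at 0.997. The other Prlr probes lay at 0.228 (A_51_P264673) and 0.450 (A_52_P458279). Of the 16 probes of the other genes of the route, the nearest, that of Socs3, lay at 0.870, and Cish lay at 1.02.

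Me1, the malic enzyme that makes NADPH in the cytosol, gave 1562.8, 1125.1, 2179.8 and 1109.8 in controls and 8849.7, 7515.3, 3166.3 and 4492.2 in Gen mice, a difference of 1.95 (SE 0.37). Fdxr, the ferredoxin reductase that passes electrons to mitochondrial P450 enzymes of steroid synthesis, gave 4554.7, 3429.9, 5330.3 and 3710.6 in controls and 20986, 12127, 5679.2 and 9631.1 in Gen mice, a difference of 1.37 (SE 0.37). Each of the 5 genes had its 2 highest values in Gen 1 and Gen 2 and its lowest Gen value in Gen 3, as Prlr had. These are descriptions, since the genes were picked for their likeness to Prlr.

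Some genes of ovarian steroidogenic cells differed between the groups as well. Cyp11a1, the side-chain cleavage enzyme that starts steroid synthesis, gave 237.52, 353.97, 3903.2 and 270.78 in controls and 23785, 21029, 4444.3 and 8709.8 in Gen mice. Hsd3b1, the next enzyme of that route, gave 2445.2, 1282.6, 18615 and 900.41 in controls and 88719, 93445, 21861 and 31371 in Gen mice. Both were highest in Gen 1 and Gen 2 and lowest among Gen mice in Gen 3, as Prlr was, and highest among controls in control 3. They rose by 4.43 (SE 0.96, adjusted p = 0.0236 by limma) and 4.18 (SE 0.96, adjusted p = 0.0246 by limma), and Inha, the inhibin alpha chain of granulosa and luteal cells, by 2.54 (SE 0.65, adjusted p = 0.0319), with Gen 4 and not Gen 3 the lowest Gen mouse. None of the 3 passed when dim probes were left out before the adjustment, with adjusted p from 0.0683 to 0.0946.

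**Figure D5:**
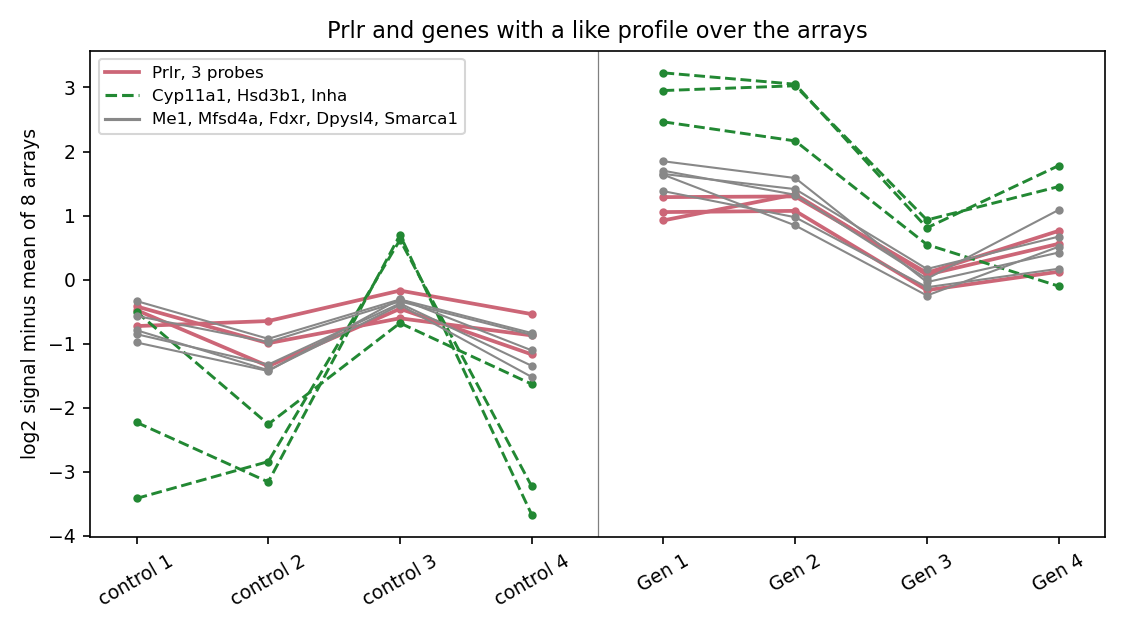
Log2 signal of each gene minus its mean over the 8 arrays, for the 3 Prlr probes (red), 3 ovarian steroidogenic markers (dashed green) and the 5 genes most like Prlr (grey); lines join the values of 1 probe within a group, and the order of mice within a group has no meaning. In each set the values of Gen 1 and Gen 2 are the highest. Cyp11a1 and Hsd3b1 stand above 0 in control 3, at 0.62 and 0.70, where Prlr does not. Control 3 is still the highest control for Prlr at A_52_P602987 and A_52_P458279, though not at A_51_P264673. It is also the highest control for each of the 5 genes most like Prlr.

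Over the whole list of 16 steroidogenic markers, 15 were measured, 4 rose and none fell, with a median difference of 0.71. Of all genes measured that way, 3.16% rose. None of the 4 passed without dim probes, where 1.1% of all probes then tested did. The filter let in Lhcgr, 1 of the 4, and Amh through the Gen arrays alone, and Fshr was well above background on 1 control array. The count and the median are thus tilted toward rises. The summed signal of the 15 was 34753 to 71668 in controls and 71783 to 195520 in Gen mice. The list was not uniform: the ovarian transcription factor gene Foxl2 and the androgen-making enzyme gene Cyp17a1 had differences of 0.02 (SE 0.27) and -0.02 (SE 0.28), and Sfrp4 and Scarb1 had differences of 0.24 and 0.71 and did not pass. Cyp19a1, Lhcgr and Amh were not well above background on any control array. The part that steroidogenic cells in the samples had in the Prlr signal was not tested, and in RNA from whole oviducts more cells of a type and more RNA per cell cannot be told apart.

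Markers of immune cells also differed between the groups. Of 13 measured genes of B and plasma cells 5 rose, where 3.16% of all genes measured that way did, and 3 when dim probes were left out before the adjustment, with a summed signal of 22852 to 42786 in controls and 60104 to 86850 in Gen mice. Their part in the Prlr signal was not tested. Jchain, the joining chain of secreted antibodies, rose by 2.01 (SE 0.39, adjusted p = 0.0236 by limma, or 0.0527 without dim probes) and was highest in Gen 3, unlike Prlr. Pax5, a B cell gene, gave 141.44, 275.48, 94.756 and 109.53 in Gen mice 1 to 4. Pax5 was thus highest in Gen 1 and Gen 2 and lowest among Gen mice in Gen 3, as Prlr was. Fcrla and Pax5, among the 5, were well above background on all 4 Gen arrays but on 1 and 3 control arrays. Of 16 measured macrophage genes 3 rose, or 2 without dim probes, with a summed signal of 167770 to 245280 in controls and 228540 to 307490 in Gen mice. Of 18 genes of T and natural killer cells 3 rose and 1 fell, or none without dim probes, with 11599 to 13144 and 9131.9 to 12114. Cd8a and Cd28, among the 3 that rose, were well above background on no control array. Over all genes measured that way 3.16% rose and 2.18% fell, and without dim probes 1.1% of all probes then tested passed. Of 9 measured fat cell genes 1 fell, also without dim probes, and the sums were 87109 to 141810 and 52182 to 118500. None of 10 smooth muscle genes passed, with 1251900 to 1678300 and 1043800 to 1389200, but all 10 had differences below 0, with a median of -0.30.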

How the data were processed

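The authors deposited a scanner file for every array, made with Agilent Feature Extraction 9.5, and its processed signal, used here, is a linear intensity that the software adjusted for background but did not normalize across arrays. Their table of the whole series holds the same intensities, equal in 45018 of 45018 spots of every array. The Rosetta Resolver step of the methods was not applied. Groups came from the sample titles.

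Control spots (1639) and outlier spots were dropped, spots of 1 probe were averaged on the log2 scale, and a constant was added to every array so that its 75th percentile of log2 signal equalled the mean 75th percentile. Gen mice were compared with controls in limma 3.58.1 (R 4.3.3) with lmFit and eBayes, on all 8 arrays without covariates, and p-values were adjusted over 41173 probes by the Benjamini-Hochberg method. Changes were called at an adjusted p under 0.05. The exact permutation test ran over the 70 assignments of the mice. The scripts were tested on simulated data. The 4 arrays a group limit the precision.

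Every probe of the 9 genes was kept separate. Other genes of the route and the cell type markers were in lists written from general knowledge, with the brightest probe per gene, and the text names those that passed and were well above background on all 4 arrays of a group, the 5 genes nearest to Prlr, and for marker lists the brightest and the defining genes. Hsd17b7 is named besides, as the target with the largest difference that did not pass. The genes and lists were chosen with earlier results of these data known. Of the probe names, 22951 were matched to RefSeq genes by accession and 9768 by symbol or synonym on GRCm38.p6, and 8455 kept the name in the files. Positions of probes come from the array design (mm7), and promoter windows are from RefSeq on GRCm38.p6. The alternatives tried for scaling were none and quantile normalization. Others were normexp, dim probes left out, a floor for small signals, keeping outlier spots, a robust fit with an intensity trend, a replicate block, Student's t-test, leaving out single arrays, averaging the probes of a gene, an unadjusted p under 0.01 and the series table. Plots were drawn with matplotlib 3.10.9.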

Additional observations from a re-analysis of the deposited data

Results flagged for a closer look

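Of the 54 group values checked (the 4 mice of a group at 1 probe), 2 held a mouse far from the other 3, which chance gives for about 1 in 20 of such groups. Igf1 at A_51_P147942 was 9097.9 in Gen 3 and 7449.9 to 7600.6 in the other Gen mice, a gap on the log2 scale of 0.90 of the range of the group, which is above Dixon's critical value. Cyp11a1 at A_51_P309733 was 3903.2 in control 3 and 237.52 to 353.97 in the other controls, a gap of 0.857 of the range. No Prlr value and no value of the other 8 genes of the route stood apart from its group in this way.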

How the results depend on the processing

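The difference of Prlr kept its direction in all settings tried and moved by less than the SD among Gen mice, although with normexp it moved by more than the SD among controls at A_51_P264673 (to 1.08) and A_52_P458279 (to 0.71). With all arrays it was 1.59 to 1.97 at A_52_P602987, 0.71 to 1.28 at A_52_P458279 and 1.08 to 1.69 at A_51_P264673, and with 1 array left out 1.56 to 1.98, 0.86 to 1.27 and 1.24 to 1.66. The count of the 16 other probes that passed was 0 in every setting with all arrays, at an unadjusted p under 0.01 and with the mean of a gene's probes; it ranged from 0 to 1 with 1 array left out, the 1 being Stat5b A_52_P663027 without control 4. Of 288 values of these probes under the alternatives, 270 kept direction and call, 17 changed sign and 1 passed.

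Arrays that were not scaled had a median difference over all probes of 0.18 in place of -0.06, and 4 differences near 0 changed sign: Ghr A_52_P680941 to 0.17, Ghr A_52_P54106 to 0.18, Stat5b A_51_P281938 to 0.22 and Socs2 A_52_P84037 to 0.19. With normexp Ghr A_51_P499854 changed to -0.12. With 1 array left out the differences of these 5 probes ranged from -0.17 to 0.0262, -0.16 to 0.0776, -0.0776 to 0.0232, -0.10 to 0.0188 and -0.0377 to 0.0742, that of Cish from -0.17 to 0.25 and that of Socs3 from -0.00085 to 0.23. The cause was not tested.

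The count of other genes of the route that passed, 5 as reported, was 0 with quantile normalization, with the floor, by Student's t-test and with the replicate block, 1 with normexp or without dim probes, 2 without scaling, 8 with the trended robust fit, and 0 to 6 with 1 array left out. The count of probes with groups apart, 1 as reported (Socs2 A_51_P107362), was 0 with quantile normalization and without scaling and 1 to 4 with 1 array left out (2 without control 1, 4 without control 4, 3 without Gen 3).

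Replicate numbers showed no pairing of the mice: deviations from the group means of mice with the same number correlated at -0.08, 0.10, -0.02 and -0.18, and 0 of 4 correlated best with their own number. The paper names the controls as littermates of the Gen mice. The sample labels give no litter, so a pairing by litter could not be checked. With the replicate block Prlr gave 1.73 (SE 0.36), 1.04 (SE 0.35) and 1.44 (SE 0.29), and the block changed no call of the 16 probes.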
